A study of Rattus norvegicus with 12 samples.

Results

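The data describe how neonatal rat ventricular myocytes (NRVMs) that had received a control siRNA responded to phenylephrine (PE), an agonist of alpha1-adrenergic receptors. NRVMs are primary beating cells of the newborn Sprague-Dawley rat ventricle, which keep some non-muscle cells, and here they were grown in serum-free medium with insulin, transferrin and selenium. The 6 samples of this response, of 12 in the series, were chosen by their transfection label: 3 NRVM samples with the negative-control siRNA (siNeg) and no PE, and 3 with siNeg and PE (siNeg PE). PE was given for 36 h, starting 12 h after transfection, by the sample labels, while the study's culture methods state a longer exposure. The other 6 samples were the same pair of conditions after knockdown of the zinc transporter Slc39a2 (siSlc39a2 and siSlc39a2 PE), and the 3 samples of each group were stated to be independent biological replicates. No transgene or mutant strain is named for any group. RNA was measured by RNA-seq in expected counts, the number of reads estimated for each gene, and 13967 of 18483 genes had enough counts to be tested.

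Alpha1-adrenergic receptors couple to Gq, which activates phospholipase C and so releases calcium and activates protein kinase C. In cultured ventricular myocytes this cascade, together with calcineurin and MAP kinases, is a standard way to induce hypertrophy, in which cells enlarge, add sarcomeres and resume a gene programme of the fetal heart. The atrial and brain natriuretic peptides, skeletal actin and beta-myosin are the textbook markers of that programme.

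Each of the 6 libraries held between 26429382 and 28102496 expected counts, and the most abundant gene took between 1.37% and 2.18% of them. The first principal component of log2 CPM (normalised counts scaled to library size) held 61.2% of the variance and separated siNeg PE from siNeg. On the second component, with 15.0%, replicate 1 of both groups stood apart from the other 4 samples, and some results are also given without these libraries. Of the genes tested, 4207 (30.1%) had a fractional count in at least 1 of the 6 samples, which arises where reads are divided between similar genes or overlapping transcripts. Values of such genes are called uncertain below where a gene is first described.

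By edgeR's quasi-likelihood test at an adjusted p below 0.05, 3351 genes were higher with PE (24% of the genes tested) and 3584 were lower (25.7%), together 49.7% of them. With a log2 fold change beyond 1 as well, 531 were up-regulated (3.8%) and 391 down-regulated (2.8%), together 6.6%. Without replicate 1 of both groups these counts were 507 and 397. The 3 PE samples did not overlap the 3 siNeg samples in CPM for 59.8% of the genes tested, the background for each statement on overlap below. The median log2 fold change over all genes tested was -0.01, and each list below is described by its counts and its median beside these shares, with no test of the list. The functional lists held 1256 different genes in the files, of which 1171 had enough counts to be tested and 85 did not. A gene is written as up-regulated, down-regulated, risen or fallen where its adjusted p passed 0.05.

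Where log2 CPM averaged over 1 in the 6 samples and the groups did not overlap, PE raised the natriuretic peptide transcripts the most. The 10 largest increases and 10 largest decreases named below are taken from that set of genes. Nppb, which encodes the brain natriuretic peptide precursor (NCBI gene 25105), stood at 9.83, 6.86 and 8.04 CPM in the siNeg samples and at 234, 296 and 369 CPM in the siNeg PE samples. Nppa (gene 24602), the precursor of atrial natriuretic peptide, stood at 99.9, 114 and 120.5 CPM without PE and 2064, 2973 and 3257 CPM with it. As the choice of this set required, the groups did not overlap for either gene, and replicate 1 was the lowest of the PE samples in both. Nppb rose 36.4-fold (log2 fold change 5.19 ± 0.17 (SE, n = 3 per group), edgeR adjusted p = 8.51e-10) and Nppa 24.8-fold (4.63 ± 0.16, adjusted p = 8.51e-10).

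Other markers of the hypertrophic programme followed over a wide range of levels. Ankrd1, a mechanosensitive repeat protein of the sarcomeric I-band and nucleus, rose 4.998-fold, from 340.1, 359.8 and 389 CPM to 1656, 1686 and 2101 CPM (log2 fold change 2.32 ± 0.12, edgeR adjusted p = 3.19e-08). Fhl1, a LIM protein that binds titin, rose 4.85-fold, from 244, 253 and 273 CPM to 988, 1268 and 1476 CPM. Of the 20 markers of the fetal and hypertrophic programme, 11 were higher and 6 lower at an adjusted p below 0.05, 7 of them up-regulated beyond 2-fold and 0 down-regulated beyond it, with a median of 0.46. The programme was not raised as a block. Ctgf (also Ccn2), a matricellular growth factor counted as a marker of stress, fell from 301, 334 and 353 CPM to 146, 156 and 218 CPM (log2 fold change -0.93 ± 0.12).

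**Figure D1:**
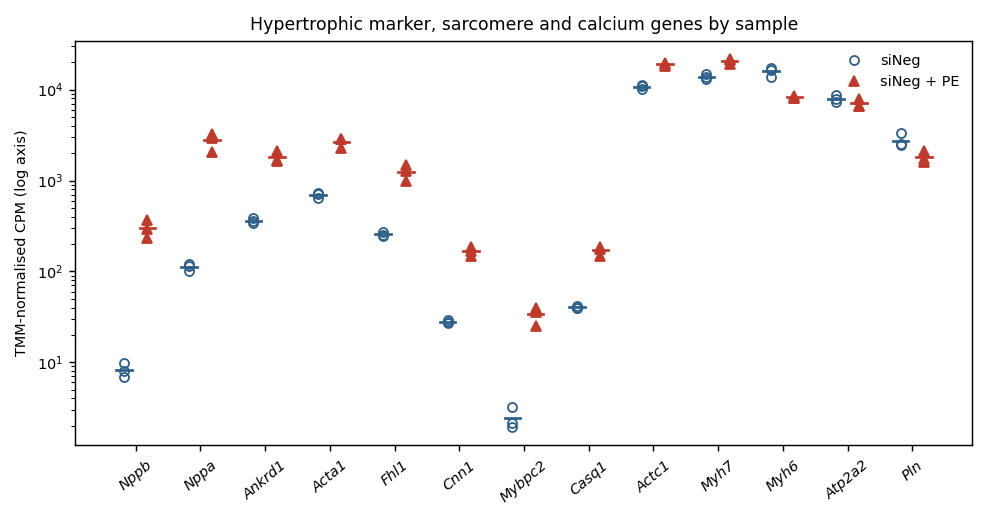
CPM of 13 marker, sarcomere and calcium genes in each sample, on a log axis. Open circles are the 3 siNeg samples, triangles the 3 siNeg PE samples, and short bars the group means. Nppb and Nppa moved by more than a factor of 20, Myh7, Myh6 and Actc1 by less than a factor of 2, and the groups of Atp2a2 overlapped.

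The sequences before the start sites of 4 genes that PE raised are shown with motifs of textbook effectors of cardiac growth signals. These are CArG boxes for SRF, M-CAT elements for TEAD factors and GATA elements for GATA4. Whether these factors acted on the 4 genes here was not tested. Each line holds 250 bases before and 50 bases after the annotated start, from RefSeq (rat build GRCr8), written 5′ to 3′ along the gene, with matches to the searched motifs in capitals. On rat chromosome 5 Nppb and Nppa lie beside each other, at chr5:163699758-163700057 and chr5:163711934-163712233 (both plus strand). Acta1 is at chr19:68784145-68784444 and Mybpc2 at chr1:104154052-104154351 (both minus strand).
Nppb: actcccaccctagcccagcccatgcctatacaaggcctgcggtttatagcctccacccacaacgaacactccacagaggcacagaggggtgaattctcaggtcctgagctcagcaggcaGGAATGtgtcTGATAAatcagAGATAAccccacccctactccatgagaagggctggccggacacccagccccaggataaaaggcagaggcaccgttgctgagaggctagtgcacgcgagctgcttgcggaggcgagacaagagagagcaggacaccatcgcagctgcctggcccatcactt
Nppa: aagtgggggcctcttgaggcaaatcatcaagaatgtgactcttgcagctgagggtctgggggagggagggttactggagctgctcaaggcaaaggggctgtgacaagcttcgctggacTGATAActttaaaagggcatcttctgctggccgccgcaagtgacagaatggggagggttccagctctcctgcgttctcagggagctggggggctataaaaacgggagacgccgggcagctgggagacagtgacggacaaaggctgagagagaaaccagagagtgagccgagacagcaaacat
Acta1: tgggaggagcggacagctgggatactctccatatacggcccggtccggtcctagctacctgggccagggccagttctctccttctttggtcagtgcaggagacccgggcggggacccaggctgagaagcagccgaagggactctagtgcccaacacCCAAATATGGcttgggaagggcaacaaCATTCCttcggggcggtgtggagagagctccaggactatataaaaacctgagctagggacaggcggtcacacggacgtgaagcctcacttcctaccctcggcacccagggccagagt
Mybpc2: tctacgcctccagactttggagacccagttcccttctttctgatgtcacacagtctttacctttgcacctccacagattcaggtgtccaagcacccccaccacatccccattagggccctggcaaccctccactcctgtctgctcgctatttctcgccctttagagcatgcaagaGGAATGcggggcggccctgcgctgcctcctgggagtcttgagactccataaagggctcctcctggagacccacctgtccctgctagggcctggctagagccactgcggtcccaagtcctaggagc
The Nppb window held the M-CAT letters CATTCC on the reverse strand at -131 to -126 and GATA letters (AGATAA or TGATAA) at -121 to -116 and -110 to -105, counted from the start site. Nppa held GATA letters at -132 to -127. Acta1 held a CArG box at -94 to -85 and CATTCC at -67 to -62, and Mybpc2 held CATTCC on the reverse strand at -75 to -70.

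The same letters were counted in the promoters of all genes, as a description with no test. Promoter sequences were matched for 10832 of the genes tested, of which 11.2% held CATTCC on either strand, 9.73% a GATA element and 1.31% a CArG box. Among the matched promoters of genes up-regulated beyond 2-fold, the shares were 12.2%, 11.2% and 2.3%, and among those of genes down-regulated beyond it 11.9%, 10.4% and 1.44%. A MEF2 site was held by 1.65% of the promoters of tested genes, 1.79% of the up-regulated and 3.6% of the down-regulated. The AP-1 letters TGANTCA were in 4.69%, 5.87% and 3.96% of the same sets, and the CRE letters TGACGTCA in 3.16%, 4.85% and 1.44%. Every motif was searched on both strands, with GATA as AGATAA or TGATAA, and the 2 GATA matches of Nppb did not overlap. A match describes the letters of the window only.

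In the growth lists, cell cycle genes were raised most often and the translation machinery changed little. Of 42 cell cycle and mitosis genes, 33 rose and 2 fell, 14 rose beyond 2-fold, and the median log2 fold change was 0.77. Mki67, a nuclear protein of cycling cells, stood at 7.62, 20.5 and 16.1 CPM without PE and 34.3, 62.6 and 53.97 CPM with it (log2 fold change 1.77 ± 0.30, edgeR adjusted p = 0.000506). Top2a, the topoisomerase of replicating and mitotic cells, went from 8.85, 18.2 and 16.8 to 37.8, 55.4 and 49.6 CPM (1.70 ± 0.28), and Ccne2, a cyclin of S-phase entry, from 1.62, 2.198 and 2.01 to 4.72, 7.07 and 7.15 CPM (1.70 ± 0.29, uncertain). Replicate 1 was the lowest sample of its group for all 3 genes, and no PE sample overlapped a siNeg sample. Without replicate 1 of both groups the median of the cell cycle list was 0.73. Among genes chosen after their values were seen, the replicative helicase subunit Mcm5 rose (1.30) and Cdkn1c, an inhibitor of cyclin-dependent kinases, fell with overlapping groups (-0.67). Counts from all cells of a dish cannot tell which cells carried these transcripts, and in such bulk RNA fewer cells of a type and less RNA per cell cannot be told apart.

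Of 50 ribosome biogenesis genes, 15 were higher and 8 lower, none beyond 2-fold, with a median of 0.10. Heatr1, which acts in transcription of ribosomal DNA and processing of its RNA, had the largest change of the list at 0.73 (uncertain). Among 46 initiation and elongation factors, 14 were higher and 13 lower, with Eif1a at 0.85, Eif5 at 0.77 (uncertain) and Eif2s2 at 0.76. Aminoacyl-tRNA synthetases, which charge tRNAs with amino acids, were higher in 10 and lower in 2 of 20, with Lars at 0.64, Nars at 0.61 and Qars at -0.54. The cardiac and growth transcription factors held 5 higher and 15 lower members of 40, none beyond 2-fold, and the 3 with the largest change all rose. Tead4, a TEAD factor, rose (0.99 ± 0.18, uncertain), as did Tbx20, a T-box factor of the heart (0.90 ± 0.19), and Myocd, the SRF coactivator myocardin (0.75 ± 0.15). Ubiquitin ligases of atrophy and autophagy genes were lower in 12 and higher in 5 of 25, with a median of -0.21. The F-box proteins Fbxo31 (-0.82 ± 0.09) and Fbxo30 (0.64 ± 0.18, uncertain) changed in opposite directions, the latter at 0.55 and no longer past the test without replicate 1 of siNeg.

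In the sarcomere, the balance of paralogous isoforms shifted with PE. FPKM (fragments per kilobase of transcript, scaled by library depth) is a level per length and so allows a comparison between genes. Myh7, the slow beta-myosin heavy chain, measured 1448, 1561 and 1702 FPKM without PE and 2932, 2918 and 3353 FPKM with it, while Myh6, the fast alpha chain, went from 2109, 2608 and 2770.3 to 1298, 1358 and 1414 FPKM. Every PE sample was above every siNeg sample for Myh7 and below for Myh6. Myh7 therefore made up 40.7%, 37.4% and 38.1% of the summed FPKM of both genes without PE and 69.3%, 68.2% and 70.3% with PE, a difference of 30.6 percentage points. The same share computed from expected counts differed by 24.7 points. Both genes carried fractional counts, and their split is uncertain. In the edgeR fit Myh7 rose (0.57 ± 0.07) and Myh6 fell (-0.95 ± 0.09, adjusted p = 5.12e-06). Quantile normalization of log2 counts gave Myh7 a value of 0.20 with an adjusted p of 0.0598.

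Acta1, the skeletal alpha-actin, rose 3.81-fold, from 731, 648 and 707 CPM to 2271, 2830.2 and 2847 CPM (1.93 ± 0.09, edgeR adjusted p = 2.48e-08, uncertain). Actc1, the cardiac alpha-actin, rose from 11177, 10245 and 10920.1 CPM to 19821, 18440.2 and 19113 CPM (0.83 ± 0.06, uncertain), whereas limma on quantile-normalized FPKM, which gives the most abundant gene of every library the same value, gave it a change of 0. By FPKM, Acta1 made up 6.36%, 6.16% and 6.29% of the actin pair without PE and 10.6%, 13.7% and 13.4% with it, a difference of 6.32 points. Tnni1, the slow troponin I of the fetal heart, made up 43.8% ± 0.771 (SD, n = 3) of its pair with the adult form Tnni3 without PE and 48.2% ± 0.777 with it. Tnni3 fell (-0.43 ± 0.11, uncertain), a call that limma did not make on quantile-normalized values (-0.15 to -0.26). Together with Ckb of the creatine kinase pair (15.2% ± 0.409 to 26.05% ± 3.02) and Slc2a1 of the glucose transporter pair (49.3% ± 3.498 to 52.8% ± 0.790), 5 shares were compared. By an exact two-sided permutation test the first 4 each gave p = 0.1, which is the smallest p that 3 against 3 samples allow (0.125 after Benjamini-Hochberg adjustment over the 5), and the Slc2a1 share gave p = 0.3 with overlapping groups.

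Paralogs that are typical of skeletal muscle changed as well. Mybpc2, the fast skeletal myosin-binding protein C, stood at 1.94, 2.12 and 3.23 CPM without PE and 25.3, 36.02 and 39.8 CPM with it (3.79 ± 0.20, edgeR adjusted p = 3.99e-08). Myl1, an essential light chain of fast skeletal muscle, was counted 4, 8 and 8 times without PE and 37, 48 and 48 times with it. Myh1, a fast skeletal myosin heavy chain, moved the other way at trace levels, from 20.8, 40.5 and 37.7 expected counts to 4, 4 and 3.34 (uncertain). Of 14 thick filament genes tested, 5 rose and 6 fell. Of 16 thin filament genes, 7 rose and 2 fell, among them Nrap, an actin-anchoring protein of forming myofibrils and the intercalated disc, from 253, 279.5 and 303 to 625, 602 and 655 CPM (1.17 ± 0.07), and Lmod1, the smooth muscle leiomodin, which fell (-1.81 ± 0.15).

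The Z-disc, titin and M-line list held 13 risen and 5 fallen genes of 29, with a median of 0.34. Ankrd1 and Fhl1 led it, and Myom3, an M-line myomesin, fell (-1.45 ± 0.11, uncertain). Sarcomere assembly and chaperone genes divided evenly, 5 higher and 5 lower of 16, with the cofilin Cfl2 at 0.67, Klhl31 at 0.65 and Klhl40, which stabilizes thin filament proteins, at -0.90. Of 32 cytoskeletal genes, 8 rose and 15 fell. Calponin Cnn1 stood at 26.97, 27.6 and 29.3 CPM and 147, 165 and 187 CPM (2.57 ± 0.08) and the tubulin Tuba1a at 546, 630.3 and 729 CPM and 1623, 1819 and 1976 CPM (1.51 ± 0.10, uncertain), while the tubulin Tuba8 fell (-1.49 ± 0.21). At the intercalated disc, where myocytes are joined, 11 of 20 genes rose and 3 fell. The desmosomal cadherin Dsc2 rose (0.92 ± 0.15) and the connexin Gja5 fell (-1.09 ± 0.14), and Gja1, the main ventricular connexin, was at 762, 766 and 727 CPM and 877, 767 and 751 CPM, with overlapping groups. By limma on log2(FPKM + 1) and log2(FPKM + 0.1), Gja1 was called higher (0.26 on each, limma adjusted p = 0.0137 and 0.0216).

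**Figure D2:**
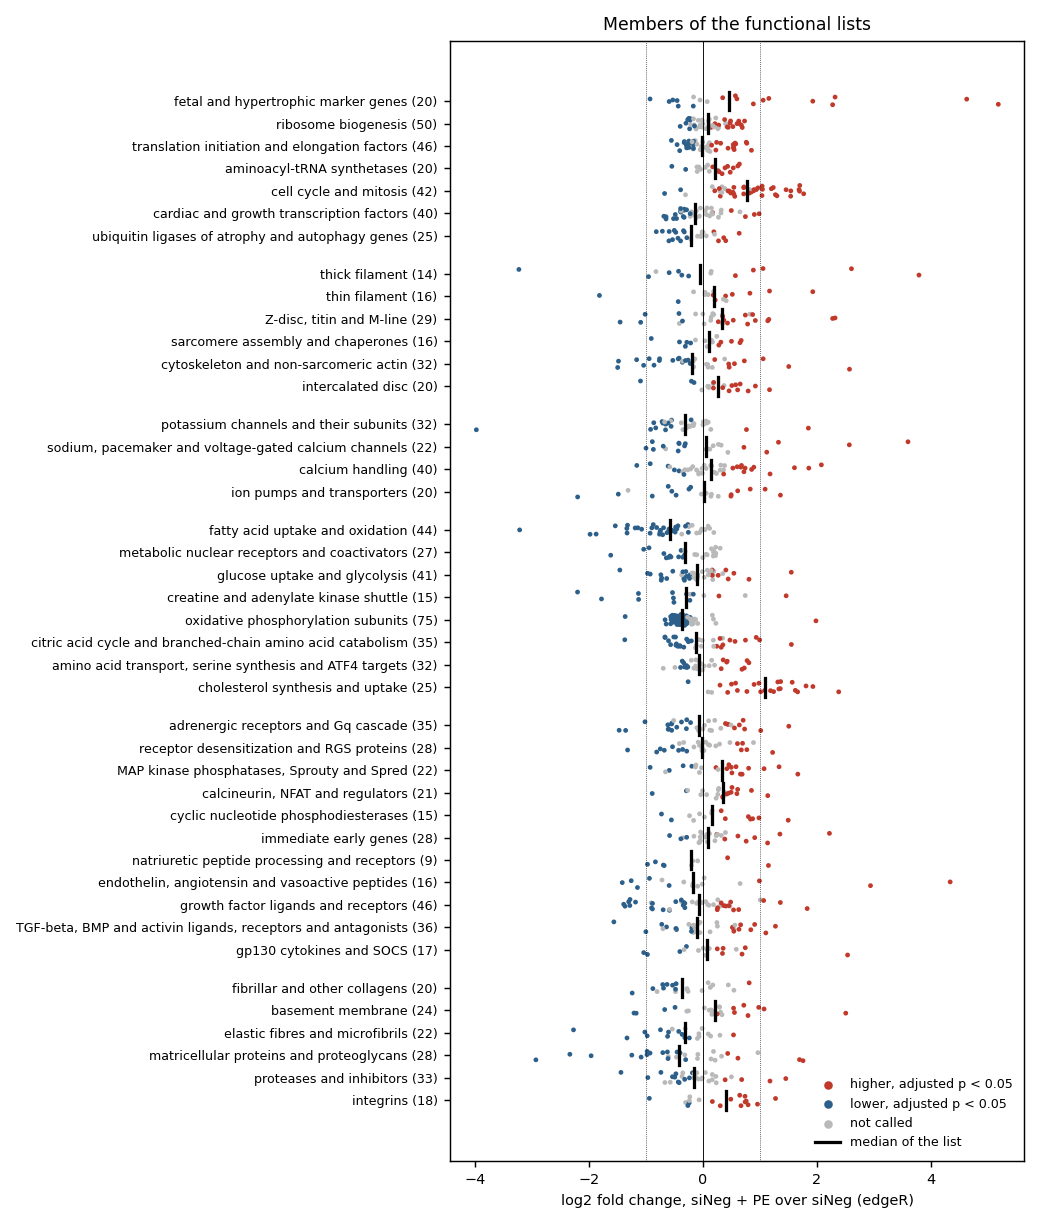
Log2 fold change of siNeg PE over siNeg for every tested member of the 42 functional lists, 1 dot per gene. Red dots were higher and blue dots lower at an adjusted p below 0.05, grey dots were not called, black bars are list medians, dotted lines mark log2 fold changes of 1 and -1, and numbers in parentheses are genes tested. The cholesterol and cell cycle lists sit to the right with medians of 1.09 and 0.77, and the fatty acid oxidation list to the left with -0.57.

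Among ion channels, the largest change was the fall of Kcnip2, which encodes KChIP2, the subunit that brings Kv4 channels to the surface for the transient outward potassium current. Kcnip2 was measured at 197, 142 and 131 CPM in the siNeg samples and 15.9, 10.9 and 3.12 CPM in the siNeg PE samples. It fell 15.7-fold without overlap (log2 fold change -3.97 ± 0.40, edgeR adjusted p = 1.14e-05, uncertain). The genes for the Kv4 pore itself did not pass the test, with Kcnd2 at 5.41, 5.76 and 5.75 CPM and 4.86, 4.64 and 3.78 CPM (-0.35 ± 0.16, adjusted p = 0.0855, uncertain, and past limma's test at -0.29 to -0.48) and Kcnd3 at -0.23. Of 32 potassium channel genes tested, 13 fell and 2 rose, with a median of -0.32. Kcne4, a subunit that inhibits Kv channels, fell (-0.92 ± 0.12), and so, chosen after their values were seen, did Kcnh2, the pore of the rapid delayed rectifier (-0.83), and Kcnj3, a pore of the acetylcholine-gated current (-0.71). Kcnj2, the main inward rectifier, was at 38.7, 40.5 and 38.1 CPM and 35.8, 34.1 and 34.6 CPM (adjusted p = 0.167).

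Sodium, pacemaker and voltage-gated calcium channel genes moved in both directions, 5 up and 9 down of 22. Scn3b, an auxiliary sodium channel subunit, was among the 10 largest increases named by the rule above, from 0.592, 0.796 and 0.867 CPM to 6.301, 9.88 and 11.3 CPM (3.60 ± 0.27, edgeR adjusted p = 8.85e-07). Cacna1s, the calcium channel pore of skeletal muscle, rose from 1.18, 2.46 and 2.68 CPM to 9.58, 13.1 and 15.04 CPM (2.57 ± 0.26). Pores of the cardiac pacemaker and calcium currents changed less. Hcn4, the pacemaker channel, fell (-0.42 ± 0.08), and Cacna1c, the L-type calcium channel, stood at 225, 255 and 252 CPM and 266, 252 and 249.9 CPM. Limma on quantile-normalized log2(count + 1) called Cacna1c higher (0.21, limma adjusted p = 0.0484).

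In the calcium handling list, 13 genes rose and 6 fell of 40. Casq1, the skeletal form of the calcium buffer of the sarcoplasmic reticulum, rose from 39.5, 39.9 and 41.1 CPM to 148, 176 and 186 CPM (2.08 ± 0.08, uncertain). Slc8a1, the sodium-calcium exchanger, rose 1.86-fold, from 305, 369.6 and 341 to 592, 628 and 669 CPM. Pln, the phospholamban that restrains the calcium pump, fell (-0.61 ± 0.12, edgeR adjusted p = 0.00123). The pump Atp2a2 (SERCA2) stood at 7299.5, 7959 and 8644 CPM without PE and 7889, 6644 and 6619 CPM with it, overlapping groups whose sign depended on the scaling (-0.18 ± 0.08, adjusted p = 0.0809). Without replicate 1 of siNeg it was called lower (-0.23, edgeR adjusted p = 0.0356), as it was without replicate 1 of siNeg PE (-0.26, adjusted p = 0.0096) and without both (-0.32, adjusted p = 0.00167). The release channel Ryr2 was at 0.38 (adjusted p = 0.0551, past the test with DESeq2 at 0.39). Among ion pumps and transporters, the pump regulator Fxyd5 rose (1.36 ± 0.15). Over this list 6 genes rose and 8 fell of 20.

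**Figure D3:**
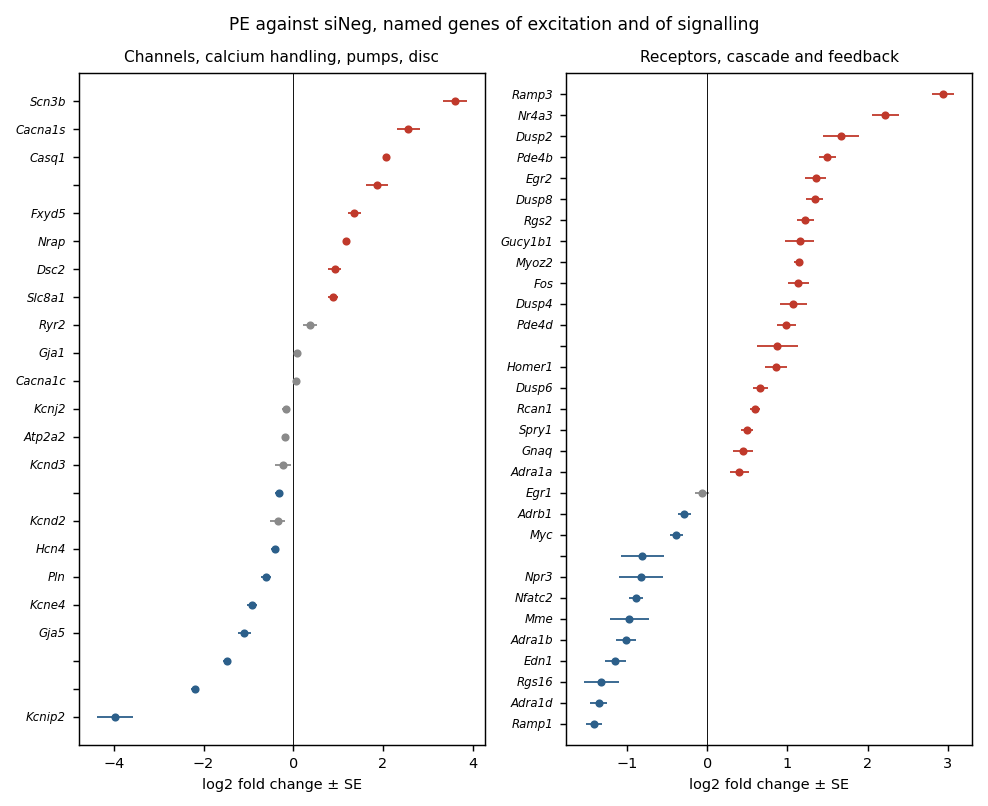
Log2 fold change with its SE (n = 3 per group) for named genes of excitation and calcium handling (left) and of receptors, cascade and feedback (right) that averaged at least 1 CPM in 1 of the groups and were not near 0 in the other. Red and blue mark genes higher and lower at an adjusted p below 0.05, and grey marks genes not called, with names for the genes named in the text. Kcnip2 is the lowest point at -3.97 and Scn3b the highest of the left panel at 3.60.

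Fatty acid oxidation genes fell widely. Of 44 genes of fatty acid uptake and oxidation tested, 32 fell, 10 of them beyond 2-fold, none rose, and the median log2 fold change was -0.57. Ucp3, a mitochondrial carrier whose expression follows fatty acid use, stood at 34.8, 22.2 and 21.1 CPM without PE and 4.68, 1.58 and 2.16 CPM with it, and fell 9.28-fold (-3.21 ± 0.33, edgeR adjusted p = 1.18e-05). The lipid droplet protein Plin4 went from 45.2, 47.4 and 48.98 CPM to 11.6, 14.1 and 12.95 CPM (-1.87 ± 0.10). Cpt1b, the gate of fatty acid entry into mitochondria, fell from 1299, 1173 and 1157 CPM to 740.3, 603 and 569 CPM (-0.92 ± 0.10, uncertain). None of these genes had overlapping groups, which the choice of the 10 largest decreases required of Ucp3. Among members chosen after their values were seen, the fatty acid binding protein Fabp3 fell by more (-1.33 ± 0.15) than the trifunctional protein subunit Hadha (-0.48 ± 0.08, uncertain). Pdk4, the kinase that restrains pyruvate oxidation, did not share the fall, at 179.6, 147 and 139 CPM and 193, 133 and 149.8 CPM (0.03 ± 0.14, adjusted p = 0.884).

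The nuclear receptors and coactivators that govern these genes were lower in 12 of 27 and higher in none. Rxrg went from 172, 144 and 141 CPM to 60.9, 47.6 and 40.5 CPM (-1.62 ± 0.13, edgeR adjusted p = 1.29e-06, uncertain) and Rxra, the common partner of PPAR receptors, fell (-0.94 ± 0.08). Ppara itself, the fatty acid sensor, was at 42.1, 51.3 and 50.003 CPM and 46.6, 42.2 and 44.5 CPM (adjusted p = 0.344), and Ppargc1a, the coactivator of mitochondrial biogenesis, at 25.2, 30.6 and 25.2 CPM and 30.9, 33.6 and 30.5 CPM (0.23 ± 0.11, adjusted p = 0.0977). With the replicate number as a block Ppargc1a passed the test (0.23, edgeR adjusted p = 0.0456), as it did without replicate 2 of siNeg (0.33, adjusted p = 0.0359). The groups of both genes overlapped.

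Of 75 oxidative phosphorylation subunits, 56 fell and 1 rose, mostly by small amounts (median -0.36). Cox8b, a subunit of cytochrome oxidase, fell from 319.7, 284 and 218 CPM to 123, 104 and 92.4 CPM (-1.36 ± 0.14), and Atp5f1e, a subunit of the ATP synthase, from 409, 323 and 282 to 238, 212 and 190.04 CPM (-0.66 ± 0.14). Cox7a1, counted 14.4, 19.99 and 8.52 times without PE and 68.1, 71.6 and 44.3 with it (uncertain), was the single member that rose. Transcripts of this list are short, with a median length of 559 bases as implied by the ratio of counts to FPKM, and length moved with the fold change over all genes. In sixths of 12731 genes by length, the median log2 fold change ran from -0.21 in the shortest (up to 1229 bases) to 0.21 in the longest (from 4607 bases), with Spearman's rho = 0.27 across genes, which are not independent. Relative to genes of like length, the median of the oxidative phosphorylation list was -0.18, that of fatty acid oxidation -0.55 and that of cholesterol synthesis 1.12. The part of transcript length in these values was not tested.

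Glucose metabolism showed no common direction, with 8 of 41 genes higher and 15 lower. Slc16a3, the lactate exporter MCT4, rose from 78.03, 66.1 and 64.7 CPM to 208, 204 and 201 CPM (1.55 ± 0.07, edgeR adjusted p = 2.37e-08, uncertain). The muscle mutase Pgam2 fell (-0.97 ± 0.11), as did the muscle fructose bisphosphatase Fbp2 (-1.46 ± 0.24). Both glucose transporters fell, Slc2a1 from 75.7, 67.9 and 69.2 CPM to 57.1, 55.01 and 58.1 CPM (-0.32 ± 0.07) and Slc2a4 from 64.5, 74.8 and 73.96 CPM to 50.4, 48.9 and 48.8 CPM (-0.53 ± 0.08). In the creatine and adenylate kinase shuttle 10 of 15 genes fell. Ckm, the muscle creatine kinase, went from 2136, 1883 and 1817 CPM to 999.9, 865 and 802 CPM (-1.13 ± 0.10), and the enzymes of creatine synthesis diverged, Gamt falling (-1.78 ± 0.11, uncertain) and Gatm rising (1.46 ± 0.13). Ckb, the brain form, was at 368, 342 and 332 CPM and 292, 319 and 318 CPM (-0.17 ± 0.06, adjusted p = 0.044, and 0.01 on quantile-normalized FPKM, with the call lost on leaving out any siNeg or siNeg PE library except replicate 3 of siNeg), beside the larger fall of Ckm.

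In the citric acid cycle and branched-chain amino acid list, 10 genes rose and 17 fell of 35. Bckdha, of the dehydrogenase that commits branched-chain amino acids to breakdown, fell from 139, 125 and 119.6 CPM to 55.9, 49.1 and 43.5 CPM (-1.37 ± 0.09). Bdh1, the ketone body dehydrogenase, rose 2.94-fold, from 26.8, 25.5 and 26.3 CPM to 78.003, 77.9 and 74.95 CPM (1.55 ± 0.06, edgeR adjusted p = 2.39e-09). Pdha1, of pyruvate dehydrogenase, rose as well (1.00 ± 0.16, uncertain). Amino acid transport, serine synthesis and ATF4 target genes numbered 8 higher and 7 lower of 32, led by the mitochondrial folate enzymes Mthfd2 (0.81 ± 0.08) and Mthfd1l (0.73 ± 0.09) and the glutamine transporter Slc38a1 (0.78 ± 0.09).

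Cholesterol synthesis was the list with the highest median of all, at 1.09. Of 25 members tested, 22 rose, 14 of them beyond 2-fold, and 1 fell. Idi1, which makes dimethylallyl diphosphate, went from 16.5, 19.02 and 17.9 CPM to 94.4, 95.2 and 89.7 CPM (2.38 ± 0.20, edgeR adjusted p = 2.45e-06), the sterol reductase Hsd17b7 from 10.3, 11.1 and 10.95 CPM to 39.7, 39.3 and 44.6 CPM (1.93 ± 0.11), and Hmgcs1, the synthase of the mevalonate pathway, from 70.2, 85.2 and 79.8 CPM to 271, 266 and 288 CPM (1.81 ± 0.12). All PE samples were above all siNeg samples for the 3 genes. Further members were chosen after their values were seen, with the squalene epoxidase Sqle at 1.37 and the Scap-binding protein Insig1 at 1.57. The member that fell was Scap, the escort of SREBP factors (-0.26, also chosen after its value was seen), and Srebf2, the transcription factor of the pathway, was at 0.09 (adjusted p = 0.162).

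Genes of fatty acid desaturation and lipid storage were among the 10 largest increases too. Scd, a stearoyl-CoA desaturase that makes monounsaturated fatty acids, went from 10.03, 11.6 and 13.1 CPM to 165, 140.4 and 154 CPM, a 13.2-fold rise (3.73 ± 0.10, edgeR adjusted p = 1.95e-10, uncertain), and the lipase family member Pnpla3 from 0.987, 1.099 and 1.34 CPM to 7.44, 7.63 and 7.12 CPM (2.69 ± 0.18). In both, the PE samples lay close together and far above the siNeg samples.

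**Figure D4:**
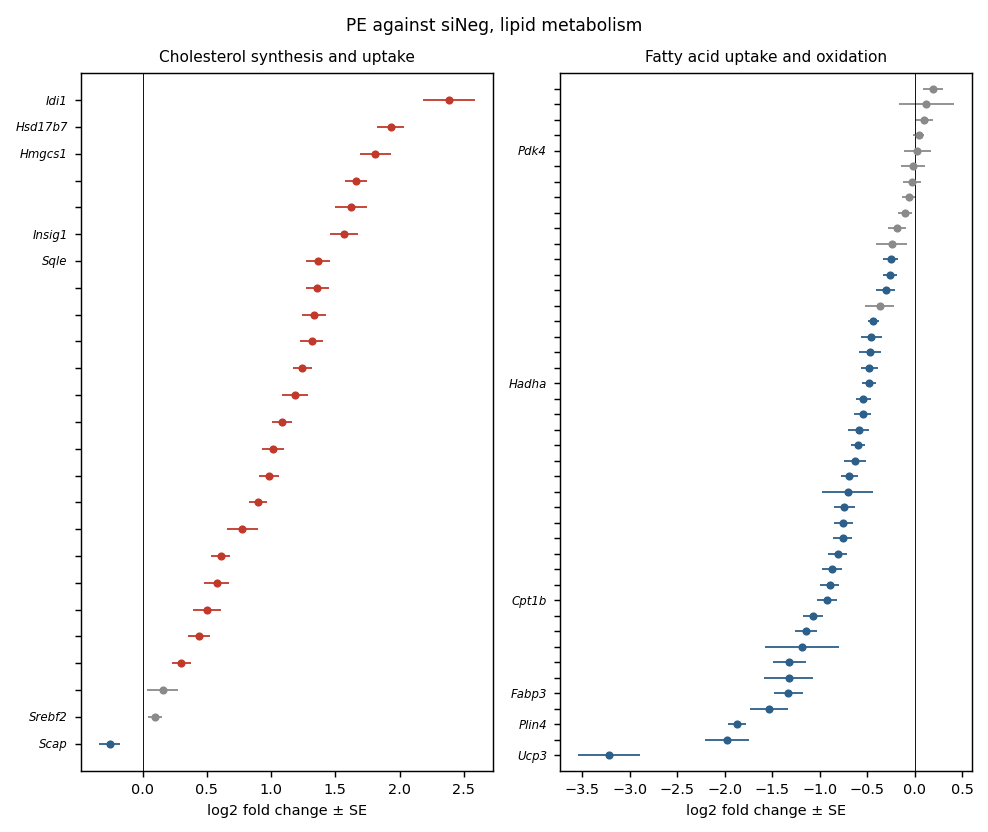
Log2 fold change with its SE (n = 3 per group) for the tested members of cholesterol synthesis and uptake (left) and of fatty acid uptake and oxidation (right), sorted by value. Red and blue mark genes higher and lower at an adjusted p below 0.05, grey marks genes not called, with names for the genes named in the text. The left panel holds 22 red points and the right panel 32 blue points and no red one.

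The receptors for PE itself changed unequally. Adra1d fell from 88.5, 79.7 and 78.2 CPM to 33.3, 31.6 and 31.4 CPM (-1.35 ± 0.10, edgeR adjusted p = 1.07e-06), and Adra1b from 217, 183 and 182 CPM to 115, 91.6 and 81.6 CPM (-1.02 ± 0.12, adjusted p = 4.01e-05). Adra1a rose from 25.4, 30.01 and 31.7 CPM to 32.9, 39.04 and 42.7 CPM (0.40 ± 0.12, adjusted p = 0.0155), a call that was lost, at 0.31 each, without replicate 1 of siNeg or replicate 3 of siNeg PE. The groups did not overlap for any of the 3 subtypes. Adrb1, the main beta-adrenergic receptor of the heart, fell slightly (-0.29 ± 0.08, and -0.18, not past the test, by limma on FPKM). Of 35 adrenergic and Gq cascade genes, 9 rose and 14 fell. The alpha subunit gene Gnaq rose (0.45 ± 0.13, or 0.36 and not past the test without replicate 2 of siNeg PE), and Plcb1, a phospholipase C of the cascade, was near 1 CPM in all 6 samples.

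Negative regulators of the cascade were raised in part. Rgs2, which speeds the shut-off of Gq, rose from 13.2, 11.97 and 11.1 CPM to 26.01, 26.8 and 31.9 CPM (1.23 ± 0.11, edgeR adjusted p = 4.93e-06, uncertain), whereas Rgs16 fell from 1.82, 2.35 and 2.29 to 0.995, 0.598 and 0.991 CPM (-1.32 ± 0.21). Over the receptor desensitization and RGS list, 5 genes rose and 8 fell of 28. MAP kinase phosphatases, Sprouty and Spred genes, which restrain ERK and related kinases, rose in 12 and fell in 4 of 22 (median 0.34). Dusp2 went from 1.501, 1.02 and 1.14 CPM to 4.16, 3.76 and 3.74 CPM (1.67 ± 0.22), Dusp8 from 10.7, 11.9 and 11.98 CPM to 27.7, 28.3 and 31.5 CPM (1.34 ± 0.11), and Dusp4 from 2.33, 2.92 and 2.601 CPM to 4.72, 5.14 and 6.71 CPM (1.08 ± 0.17). Dusp6, the ERK phosphatase, rose less (0.66 ± 0.09), as did Spry1 (0.50 ± 0.08, uncertain). No PE sample of these genes was as low as a siNeg sample.

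Calcineurin, NFAT and their regulators rose in 10 and fell in 2 of 21 genes. Myoz2, calsarcin-1, which tethers calcineurin to the Z-disc and restrains it, rose from 254, 261 and 259 CPM to 608, 556 and 542 CPM (1.14 ± 0.06, edgeR adjusted p = 3.47e-08). Rcan1, the calcineurin inhibitor that is itself an NFAT target, rose from 108, 104 and 104 CPM to 155, 156 and 168 CPM (0.60 ± 0.06). The scaffold protein Homer1 rose (0.85 ± 0.14) and Nfatc2 fell (-0.89 ± 0.09, uncertain). Cyclic nucleotide phosphodiesterases, which end cAMP and cGMP signals, rose in 7 and fell in 2 of 15, with Pde4b going from 20.3, 25.7 and 28.6 CPM to 74.2, 66.9 and 69.8 CPM (1.499 ± 0.11) and Pde4d from 19.5, 20.6 and 20.6 CPM to 38.1, 41.6 and 40.5 CPM (0.99 ± 0.12).

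Immediate early genes, whose induction peaks within the first hours of a stimulus, were measured here long after its start. Of 28, 8 were higher and 3 lower. The orphan receptor Nr4a3 was at 1.03, 1.17 and 1.42 CPM without PE and 5.93, 5.94 and 5.06 CPM with it (2.22 ± 0.17, edgeR adjusted p = 8.88e-07), Egr2 at 8.21, 7.43 and 6.305 CPM and 18.5, 18.3 and 19.3 CPM (1.35 ± 0.13), and Fos at 5.65, 4.17 and 3.78 CPM and 10.4, 10.2 and 9.32 CPM (1.14 ± 0.13, uncertain). Egr1 was at 63.8, 59.5 and 55.9 CPM and 53.5, 58.2 and 59.1 CPM, with overlapping groups (adjusted p = 0.544), and Myc fell (-0.39 ± 0.08).

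Among secreted vasoactive signals and their receptors, opposite changes stood side by side. Ramp3, a co-receptor for adrenomedullin, rose from 1.15, 1.29 and 1.103 CPM to 8.66, 9.11 and 9.54 CPM (2.94 ± 0.13, edgeR adjusted p = 1.6e-08), while Ramp1, the co-receptor for calcitonin gene-related peptide, fell from 61.3, 52.9 and 47.99 CPM to 20.7, 20.8 and 19.3 CPM (-1.41 ± 0.10). Edn1, endothelin-1, a hypertrophic peptide of myocytes and endothelium, fell from 7.66, 7.88 and 7.01 CPM to 3.24, 3.27 and 3.67 CPM (-1.15 ± 0.13). The bradykinin receptor Bdkrb2 was counted 0, 2 and 3 times without PE and 22, 32 and 62 times with it. Of the 9 tested genes listed under natriuretic peptide processing and reception, 2 rose and 4 fell. The list also held Gucy1b1, a subunit of the nitric oxide receptor guanylate cyclase and not a natriuretic peptide receptor, which rose (1.15 ± 0.18). The clearance receptor Npr3 (-0.83 ± 0.28, uncertain) and the peptide-degrading protease Mme (-0.97 ± 0.25) fell. The call of Npr3 was lost on leaving out replicate 2 or 3 of siNeg (-0.72 and -0.64) or of siNeg PE (-0.78 and -0.88).

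Growth factor ligands and receptors rose in 12 and fell in 17 of 46. Areg, an EGF receptor ligand, was counted 9, 5 and 15 times without PE and 37, 34 and 41 times with it, and Igfbp3, which binds insulin-like growth factors, fell from 20.3, 26.3 and 31.4 CPM to 8.99, 10.4 and 10.4 CPM (-1.39 ± 0.13). In the TGF-beta family, 9 rose and 9 fell of 36. Inha, the inhibin alpha subunit, was among the 10 largest increases at 19.03, 18.1 and 19.3 CPM and 121, 124 and 113 CPM (2.67 ± 0.08, edgeR adjusted p = 4.37e-10). Its partner subunit Inhbb fell (-1.56 ± 0.20), the activin antagonist Fstl3 rose (1.27 ± 0.12), Id1, a BMP target, rose (1.11 ± 0.18), and Tgfb2 rose from 22.8, 30.5 and 28.6 to 38.1, 54.8 and 61.2 CPM (0.91 ± 0.17). The cardiotrophin gene Ctf1 fell (-1.04 ± 0.19), and Socs1, a suppressor of cytokine signalling, fell (-0.97 ± 0.17). Over the gp130 and SOCS list 6 rose and 4 fell of 17. Stc1, the secreted glycoprotein stanniocalcin, rose from 14.1, 17.96 and 19.8 CPM to 141, 141 and 140.4 CPM (3.03 ± 0.14), and Gda, guanine deaminase, from 1.94, 3.26 and 2.76 to 15.6, 19.8 and 21.1 CPM (2.82 ± 0.22).

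Matrix genes fell more often than they rose, except in the integrin and basement membrane lists. Fibrillar and other collagens fell in 8 and rose in 1 of 20 (median -0.37). Col1a1 went from 8989.98, 11364 and 11915 CPM to 5694, 6944 and 7370.3 CPM (-0.69 ± 0.13, edgeR adjusted p = 0.00112), Col3a1 from 2718, 3779 and 4106 CPM to 1787, 2276 and 2449.9 CPM (-0.70 ± 0.17), and Col11a1 fell the most (-1.24 ± 0.24). Replicate 1 was the lowest sample of its group for all 3 collagens. On quantile-normalized values limma did not call Col1a1 (-0.29 to -0.48), Col3a1 (-0.48 to -0.53) or Fn1 (-0.40 to -0.44). Elastic fibre and microfibril genes fell in 12 and rose in 1 of 22, with elastin, Eln, from 597, 759.5 and 914 CPM to 349, 397 and 375 CPM (-1.02 ± 0.13) and the latent TGF-beta binding protein Ltbp2 from 159, 193 and 203 CPM to 54.5, 78.3 and 87.9 CPM (-1.33 ± 0.16). Fn1, fibronectin, passed the test although its groups overlapped, at 2044, 2841 and 3139 CPM and 1395, 1768 and 2053 CPM (-0.62 ± 0.16, adjusted p = 0.00617), and Postn, periostin, was at 379, 470.4 and 439 CPM and 394, 510.3 and 520.04 CPM (adjusted p = 0.596).

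Matricellular proteins and proteoglycans fell in 14 and rose in 4 of 28 (median -0.42). Smoc2, a calcium-binding matricellular protein, went from 68.3, 56.8 and 56.3 CPM to 14.8, 12.03 and 9.098 CPM (-2.33 ± 0.15, edgeR adjusted p = 1.92e-07) and Wisp2, a relative of Ctgf, from 29.9, 40.5 and 44.3 CPM to 8.47, 9.53 and 11.5 CPM (-1.96 ± 0.16). Cemip, which degrades hyaluronan, was among the 10 largest decreases, from 253, 405 and 454 CPM to 39.9, 47.9 and 57.9 CPM (-2.93 ± 0.21). Proteases and their inhibitors fell in 11 and rose in 4 of 33. Timp1, an inhibitor of metalloproteinases, rose from 54.9, 46.6 and 42.8 CPM to 127, 130.2 and 139 CPM (1.46 ± 0.09, uncertain), and the protease Adamts9 rose (1.18 ± 0.12).

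At the cell surface, 11 of 18 integrins rose and 3 fell, with a median of 0.40. Itga9 rose from 25.5, 31.98 and 35.1 CPM to 64.7, 72.8 and 86.7 CPM (1.28 ± 0.13) and the collagen receptor Itga11 fell (-0.94 ± 0.14). In the basement membrane list 9 rose and 4 fell of 24, and the median of 0.22 became 0.04 relative to genes of like length. Lamb3, a chain of laminin-332, rose from 24.8, 30.5 and 27.3 CPM to 153, 146 and 171 CPM (2.51 ± 0.10, edgeR adjusted p = 2.95e-09), and Npnt, nephronectin, fell (-1.17 ± 0.20).

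The cells carried the markers of their label. Summed over 6 cardiomyocyte markers, including Myh6, Tnnt2 and Actn2, the level was 26616 to 29623 CPM, here per all counts of the library, in the siNeg samples and 22238 to 22986 in the siNeg PE samples. Of these markers Actn2 rose (0.43 ± 0.06), Myh6, Mybpc3 and Tnni3 fell, and Tnnt2 and Ryr2 were not called. Fibroblast markers summed to 8514 to 11649 CPM without PE and 5798 to 7648 with it, a sum that is mostly Col1a1. They did not move together, as Tcf21 fell (-0.66 ± 0.08) and Pdgfra rose (0.74 ± 0.12, uncertain), with 2 higher and 3 lower of 6. The part of fibroblast content in the matrix and cell cycle results was not tested. Macrophage markers summed to 78.9 to 112 without PE and 39.2 to 51.7 with it, with 3 of 6 lower and none higher. Smooth muscle and pericyte markers summed to 576 to 682 and 678 to 798, with 1 risen (Cnn1) and 1 fallen (Pdgfrb, -0.51 ± 0.10) of 6. In these sums Lyz2, Cd68 and Csf1r are uncertain. Endothelial markers (7.32 to 9.41 and 6.098 to 9.505), epicardial markers (14.7 to 23.3 and 13.1 to 19.8), Schwann cell markers (2.16 to 2.40 and 1.73 to 2.20) and erythroid markers (under 0.25 in every sample) were low, and their sums overlapped between the groups. Apart from 1 erythroid gene, each listed marker in the files had counts in at least 1 of the 6 samples.

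Slc39a2, the gene targeted in the other arm of the study, rose with PE in siNeg cells, from 50, 50 and 59 counts to 95, 198 and 182 counts (1.47 ± 0.36, edgeR adjusted p = 0.00541), a rise of 1.29 by limma on quantile-normalized counts that did not pass. The siSlc39a2 samples share no control with the siNeg pair but were fitted in the same model, and each change can be read again there. Of the 531 genes up-regulated beyond 2-fold, 515 had the same direction there and 453 (85.3%) passed the test in that direction, and of the 391 down-regulated genes, 372 and 291 (74.4%). In siNeg cells 49.7% of all genes tested passed in either direction. That share, and the share of all genes with the same direction in both transfections, were not counted for siSlc39a2 cells. Whether the shares above exceed them is therefore not given. The PE response differed between the transfections by edgeR's interaction test at an adjusted p below 0.05 for 504 genes in all (3.61%). Among the up-regulated genes 52 did so, 32 with a smaller and 20 with a larger response after knockdown, and among the down-regulated genes 42, of which 22 were smaller and 20 larger. These genes were chosen by their siNeg response, which the interaction test subtracts, so these counts carry no conclusion on the knockdown. For Nppb the response after knockdown was 4.71, for Nppa 4.56 and for Kcnip2 -4.22, none of which passed the interaction test.

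**Figure D5:**
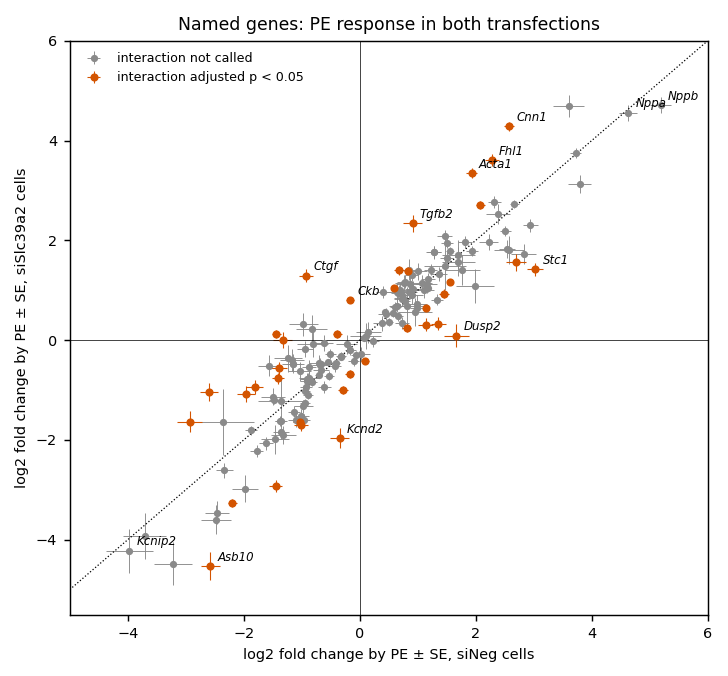
Log2 fold change by PE with its SE in siNeg cells (horizontal) and in siSlc39a2 cells (vertical) for the 170 named genes with at least 0.5 CPM in both siNeg groups. Orange points are the 37 genes whose responses differed by the interaction test at an adjusted p below 0.05, and the dotted line marks equal responses. Most points lie near the line, and Ctgf lies on opposite sides of 0 in the 2 transfections.

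The remaining genes among the 10 largest decreases belonged to none of the lists. LOC100911951, for which no other name was matched, went from 62.6, 51.98 and 50.9 CPM to 4.31, 2.67 and 5.69 CPM (-3.71 ± 0.37, edgeR adjusted p = 1.04e-05, uncertain). Megf6, an EGF-repeat protein, went from 28.4, 39.4 and 40.1 CPM to 5.195, 6.19 and 6.31 CPM (-2.61 ± 0.15, uncertain), and Asb10, of the ankyrin and SOCS box family, from 12.7, 11.7 and 12.9 CPM to 2.32, 2.25 and 1.69 CPM (-2.57 ± 0.17). Gabrb2, a GABA receptor subunit, fell (-2.47 ± 0.26), as did Hpn, the serine protease hepsin (-2.46 ± 0.21). LOC100911486 was uneven without PE, at 3.04, 11.3 and 14.8 CPM against 1.73, 1.62 and 2.31 CPM with it (-2.36 ± 0.53, uncertain).

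A few genes, chosen after their values were seen, changed between near absence and a measured level. Tgm1, a transglutaminase of epidermis, was counted 0, 2.1 and 0 times without PE and 159, 181 and 169.9 times with it (edgeR adjusted p = 2.55e-07, uncertain). Pnoc, the precursor of the neuropeptide nociceptin, averaged 0.116 ± 0.101 CPM (SD, n = 3) without PE and 11.5 ± 1.46 CPM with it (edgeR adjusted p = 1.92e-07). Galnt15, a glycosyltransferase of mucin-type O-glycosylation, had 2, 2 and 3 counts without PE and 34, 30 and 30 with it. In the other direction Sct, the peptide hormone secretin, went from 34, 38 and 32 counts to 3, 3 and 1. No library of one group reached the counts of the other for these 4 genes.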

How the data were processed

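Total RNA was extracted with Trizol from NRVMs of 4 groups with 3 independent biological replicates each and sequenced as BGI libraries. The authors deposited expected counts, which are estimated read numbers per gene and need not be whole, and FPKM values scaled by transcript length and library depth. Their processing notes name HISAT, Bowtie2 and the rat build Rnor_6.0, and the counting program is not given in the sources used here. The 6 libraries with siNeg held 26429382 to 28102496 expected counts. Genes are listed by NCBI gene number and symbol, without coordinates.

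Counts were rounded to whole numbers, and 13967 of 18483 genes passed edgeR's filterByExpr. Groups followed the sample labels. The quasi-likelihood test of edgeR 4.0.16 in R 4.3.3 was fitted to all 12 samples in 4 groups with TMM scaling and 8 residual degrees of freedom, with Benjamini-Hochberg adjustment over all genes tested, a threshold of 0.05 and, for the smaller set, an absolute log2 fold change above 1. CPM are TMM-scaled, and errors of log2 fold changes are SE. Isoform shares used FPKM and exact two-sided permutation tests. The fit was tested on simulated data. Promoters and names came from RefSeq (GRCr8).

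The samples described, the 42 functional lists and the 8 marker lists were chosen with earlier results of these data known. Named genes were the 10 largest increases and 10 largest decreases among genes past both thresholds whose groups did not overlap and whose log2 CPM averaged over 1, up to 3 called members per list with the largest change, and textbook genes of the response. A few genes that the rule picks are not reported here. Exceptions are marked as chosen after their values were seen. Alternatives were DESeq2 1.42.0, RLE scaling, no filter, the 6 samples alone, a replicate block, limma 3.58.1 (the study's tool) on quantile-normalized log2(FPKM + 1), log2(FPKM + 0.1) and log2(count + 1), and leaving out each of 6 libraries. Leaving out replicate 1 of both groups and centring by transcript length were added after seeing the data. Intervals for depth were not needed, as all values come from replicated groups.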

Additional observations from a re-analysis of the deposited data

Results flagged for a closer look

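For 35 named genes reported here, the response to PE differed between siNeg and siSlc39a2 cells by edgeR's interaction test (adjusted p below 0.05), and each value below is the log2 response after knockdown minus that in siNeg cells. Of all genes tested, 3.61% passed this test. The rule named 185 genes, a few of them not reported. Many were chosen by the size of their siNeg response, which this test subtracts, so the count of 35 carries no conclusion beside that share. No explanation was weighed for any of them.

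The rise was larger after knockdown for 8 genes. The difference was 1.42 ± 0.13 for Acta1, 1.71 ± 0.12 for Cnn1, 1.33 ± 0.16 for Fhl1, 0.57 for Actc1, 0.63 for Casq1, 0.72 for Cfl2, 1.43 for Tgfb2 and 0.44 for Rcan1. For Ctgf it was 2.22 ± 0.18 (adjusted p = 3.4e-05), with a fall in siNeg cells and a rise of 1.29 after knockdown. The fall seen in siNeg cells was smaller or turned into a rise after knockdown for Ltbp2 (1.33), Megf6 (1.57), Cemip (1.30), Wisp2 (0.88), Lmod1 (0.87), Igfbp3 (0.83), Ramp1 (0.65), Myc (0.51) and Ckb (0.97). Ampd1, an adenylate deaminase of muscle, differed by 5.35 at very low counts.

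The rise was smaller after knockdown for Stc1 (-1.61 ± 0.18), Dusp2 (-1.58), Pnpla3 (-1.13), Egr2 (-1.02), Fos (-0.82), Mthfd2 (-0.57), Timp1 (-0.52), Myoz2 (-0.49) and Bdh1 (-0.39). Genes that fell, or did not pass the test, in siNeg cells and had a lower value after knockdown were Asb10 (-1.95), Kcnd2 (-1.61), Myom3 (-1.48), Adrb1 (-0.72), Adra1b (-0.68), Gja1 (-0.51) and Atp2a2 (-0.50). For Atp2a2 the response after knockdown was -0.68, and for Kcnd2 -1.96.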

How the results depend on the processing

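Of the 172 named genes that passed the test, 146 kept their direction and call under all 15 alternatives without the length correction, as did 94 of the 103 past 2-fold. Limma on log2(FPKM + 1), a scale that shrinks low genes, left 163 up-regulated and 124 down-regulated genes. The interaction count of 504 became 806 with DESeq2, 805 by limma on log2(FPKM + 1) and 1053 once the replicate number was fitted as a block. On log2(FPKM + 1) and log2(FPKM + 0.1), the median was -0.37 and -0.38 for fatty acid oxidation and -0.17 and -0.17 for oxidative phosphorylation, which was -0.18 when centred by length. Without the samples numbered 1 the cholesterol median was 1.01.

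Leaving out single libraries gave 438 to 659 up-regulated and 353 to 447 down-regulated genes, and 2423 to 3322 higher and 2694 to 3553 lower genes at an adjusted p below 0.05. The list medians ran from 0.63 to 0.89 (cell cycle), 1.06 to 1.14 (cholesterol), -0.66 to -0.48 (fatty acid oxidation) and -0.42 to -0.29 (oxidative phosphorylation). Share differences ran from 29.9 to 31.5 points for Myh7, 5.74 to 7.30 for Acta1, 3.95 to 4.77 for Tnni1, 9.60 to 12.5 for Ckb and 2.33 to 5.52 for Slc2a1.

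Signs turned for small changes. By limma Atp2a2 was at 0.0377, 0.0378 and 0.0424 on the scales of log2(FPKM + 1), log2(FPKM + 0.1) and log2(count + 1), and on the first 2 scales Egr1 was at 0.0402 and 0.0411, Ckb at 0.0089 and 0.0090 and Plcb1 at -0.0094 and -0.0499. Without both samples numbered 1, Cacna1c was at -0.0125, Pdk4 at -0.0213, Egr1 at 0.0245 and Plcb1 at -0.0477, while Atp2a2 was called lower at -0.32. Without 1 library, Pdk4 ran from -0.137 to 0.145 and Plcb1 from -0.0345 to 0.193. The cause was not tested. Medians near 0 changed sign under at least 1 alternative for the adrenergic and Gq, ATF4, ion pump, RGS and thick filament lists. The same held for the sodium and calcium channel, translation factor, endothelial, epicardial and smooth muscle marker lists. The median of the cardiomyocyte markers, -0.19 in the main fit, changed sign by limma on log2(FPKM + 1) and on log2(FPKM + 0.1).

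With that block 537 genes were up-regulated beyond 2-fold, against 531 without it, and the down-regulated count moved by 1. At an adjusted p below 0.05 alone, the block gave 3919 higher and 4111 lower genes, against 3351 and 3584 without it. Same-numbered samples correlated at 0.315, 0.0535 and 0.206 in their deviations. Samples of different number correlated at -0.249 to 0.0892, the highest being siNeg replicate 2 with siNeg PE replicate 3. The labels do not state that equal numbers are paired, so the main fit left the numbers out. Whether they pair the samples was not settled. At 3 samples per group, no exact test of a single share can pass 0.05.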

Other observations

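Lipid synthesis beyond cholesterol was described from a list of 16 fatty acid synthesis and desaturation genes made after the data were seen, so its counts support nothing on their own. Of 15 tested, 12 rose with PE, 6 of them beyond 2-fold, none fell, and the median log2 fold change was 0.92, against -0.01 over all genes. Fasn, the fatty acid synthase, rose by 1.00 ± 0.10, Acaca, the carboxylase that commits carbon to the pathway, by 0.66 ± 0.10, and Acly, which supplies cytosolic acetyl-CoA, by 0.55 ± 0.06. Beside Scd, the desaturases Scd2 (1.63 ± 0.08, uncertain), Fads1 (0.92 ± 0.07) and Fads2 (1.35 ± 0.08) and the elongase Elovl5 (0.95 ± 0.09) rose. Elovl6 (0.53 ± 0.51, uncertain), Mid1ip1 (0.01 ± 0.07) and Agpat2 (-0.06 ± 0.10, uncertain) did not pass the test. After knockdown of Slc39a2 the median of the list was 0.90.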
